A study of Homo sapiens with 10 samples.

Results

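Zinc handling genes were examined in LNCaP-C4-2 prostate cancer cells with lowered or raised CPT1A. The members were 10 genes chosen by symbol from the 57353 genes of the count table. They were 5 metallothioneins (MT2A, MT1X, MT1E, MT1F and MT1G), the zinc exporter SLC30A1, and the zinc importers SLC39A1, SLC39A6, SLC39A8 and SLC39A10. All 10 had a row in the table. Of these, 8 passed the expression filter and were tested with the other genes, 17230 in all. MT1E and MT1G had too few counts.

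RNA was sequenced from 10 samples of LNCaP-C4-2, a prostate cancer line that grows after castration and derives from LNCaP. All lines were grown in RPMI with fetal bovine serum and all had received a lentivirus. NT cells (2 samples) carried a scrambled control shRNA and KD cells (3 samples) an shRNA to CPT1A, both selected with 1 µg/ml puromycin. EV cells (2 samples) carried an empty vector and OE cells (3 samples) the CPT1A cDNA, both selected with 5 µg/ml blasticidin (Blasticin in the labels). Each kind of cell was 1 line, and no separate transductions were described, so p-values measure the spread between these samples, which may be technical. The comparisons address which genes changed when CPT1A was lowered or raised, each line being read against its own control.

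Metallothioneins are small cysteine-rich proteins that bind zinc, copper and cadmium and buffer the free metal in the cell. SLC30 proteins (ZnT) move zinc out of the cytosol and SLC39 proteins (ZIP) move it in, from outside or from organelles. The transcription factor MTF1 senses zinc and binds metal response elements upstream of metallothionein genes and SLC30A1. Normal prostate epithelium accumulates zinc to a high level, and prostate cancer cells are known to hold less of it.

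The 3 sequences printed here are the 250 bases before the transcript start of the members for which metal response is best known. They come from RefSeq on GRCh38.p14, are written 5′ to 3′ on the gene's own strand, and carry capitals wherever the core of the metal response element matched. The core was searched as TGCACNC or TGCGCNC on both strands, so a match on the reverse strand reads GNGTGCA or GNGCGCA. MT2A lies on the + strand, with its upstream window at chr16:56608334-56608583. MT1X lies on the + strand, with its window at chr16:56682220-56682469. SLC30A1 lies on the - strand, with its window at chr1:211579162-211579411.
MT2A: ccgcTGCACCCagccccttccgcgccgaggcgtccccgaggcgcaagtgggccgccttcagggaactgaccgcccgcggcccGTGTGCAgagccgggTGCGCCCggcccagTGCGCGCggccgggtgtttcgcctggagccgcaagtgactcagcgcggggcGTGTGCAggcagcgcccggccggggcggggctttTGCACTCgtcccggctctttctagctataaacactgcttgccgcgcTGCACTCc
MT1X: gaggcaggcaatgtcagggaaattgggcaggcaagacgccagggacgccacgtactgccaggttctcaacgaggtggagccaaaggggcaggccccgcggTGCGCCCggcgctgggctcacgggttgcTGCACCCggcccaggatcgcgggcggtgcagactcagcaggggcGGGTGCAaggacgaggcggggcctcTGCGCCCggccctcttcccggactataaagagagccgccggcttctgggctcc
SLC30A1: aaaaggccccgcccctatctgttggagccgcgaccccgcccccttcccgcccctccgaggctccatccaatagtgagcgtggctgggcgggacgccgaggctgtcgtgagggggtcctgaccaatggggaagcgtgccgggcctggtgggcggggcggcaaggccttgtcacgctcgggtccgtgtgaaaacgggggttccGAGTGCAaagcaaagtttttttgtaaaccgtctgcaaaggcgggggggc

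The MT2A window held 7 matches, 5 forward and 2 reverse. MT1X held 4 matches, 3 forward and 1 reverse, and SLC30A1 held 1 reverse match. Among 35116 promoters of the same length, 24.8% had at least 1 match, 6.48% at least 2, 0.37% at least 4 and 0.0313% at least 7. A single match as in SLC30A1 was therefore common, and the number in MT2A and in MT1X was rare. Of the importers, 1 of 2 listed starts of SLC39A1, the start of SLC39A6 and 1 of 3 starts of SLC39A8 had 1 match, and neither of 2 starts of SLC39A10 had one. MT1E, MT1F and MT1G were not searched. A match describes the letters only, and binding was not measured.

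**Figure D1:**
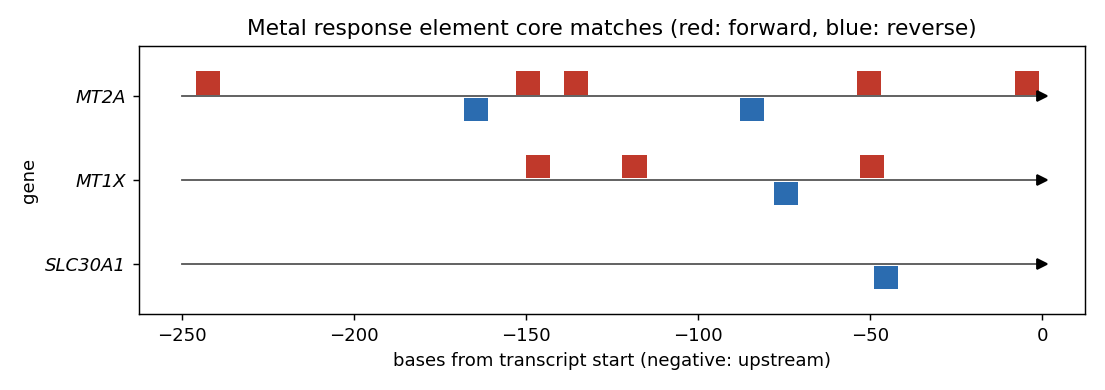
Positions of metal response element core matches in the 250 bases before the transcript start of MT2A, MT1X and SLC30A1; the x axis is in bases from the start, with forward matches in red above each line and reverse matches in blue below it. MT2A has 7 matches spread over the window, MT1X has 4 between -150 and -47, and SLC30A1 has 1.

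Libraries held 23555205 to 28615770 counts. CPT1A, the targeted gene, was at 265 and 262 CPM, counts scaled to library size with TMM factors, in NT and at 81.2, 86.4 and 86.2 CPM in KD. It was at 326 and 318 CPM in EV and at 870, 914 and 861 CPM in OE. The KD and OE libraries thus matched their labels, but CPT1A was not targeted in NT or EV and cannot check which is which. EV exceeded NT in CPT1A by 0.29 on the log2 scale (SE 0.0505, edgeR adjusted p = 9.8e-05). All 9 luminal prostate markers had at least 10 counts in every sample. So did 0 of 3 basal, 1 of 4 fibroblast, 1 of 4 neuroendocrine and 0 of 3 immune markers, so the sums of these kinds can rest on a single gene. At 0 throughout were 1 of 3 basal (KRT5), 1 of 4 fibroblast (COL1A2), 1 of 3 immune (CD3E) and 0 of 4 neuroendocrine markers. The summed luminal level was 6360 to 6640 CPM in NT and 9140 to 9990 in KD. It was 8730 to 9160 in EV and 12200 to 12700 in OE, so it was higher in each treated line than in its control. This sum too can be set by its most abundant genes, and single luminal markers were not compared. The summed fibroblast level was 9.85 to 11.2 CPM in NT, 16.1 to 17.2 in KD, 8.85 to 9.94 in EV and 11.2 to 12.9 in OE. The basal sum was 0.377 to 0.477 CPM in NT, 1.49 to 1.85 in KD, 0.487 to 0.741 in EV and 0.89 to 1.27 in OE. The neuroendocrine sum was 1.7 to 2.5 CPM in NT, 2.11 to 2.41 in KD, 2.39 to 2.73 in EV and 3.25 to 4.03 in OE, and the immune sum was at most 0.34 CPM in any sample. The part of these markers in the results was not tested. KD 2 stood apart from KD 1 and KD 3, since a chi-square of their counts, divided by its degrees of freedom, was 7.13 and 7.28. The other pairs within a line had 2.08 to 4.69. OE 2 stood apart to a lesser degree, at 4.05 with OE 1 and 4.69 with OE 3, where OE 1 and OE 3 had 2.23. In bulk RNA, fewer cells of a kind and less RNA per cell cannot be told apart.

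In OE against EV, metallothionein RNA rose and RNA of 2 importers fell. With a call at an adjusted p under 0.0001, the study's limit, 5 of the 8 tested members were called. Of all tested genes, 21.9% were called in this comparison. MT2A, MT1X and MT1F rose, against 11.6% of all genes called higher, and SLC39A6 and SLC39A10 fell, against 10.3% called lower. The median log2 fold change was 0.33 over the 8 members and -0.02 over all genes. Without EV 1, EV 2 or OE 1 in turn, 3 members were called, the metallothioneins.

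In KD against NT, 1 member was called, MT2A, which rose. Of all genes, 29.1% were called here, 16.4% higher and 12.8% lower, so the members' share was below that of the whole table. The median log2 fold change was 0.13 over the members and -0.02 over all genes. MT2A thus rose against the matched control both when CPT1A was raised and when it was lowered.

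The remaining comparisons set lines against each other. EV and NT, the pair of control lines, differed in 1 member, SLC39A8, which was lower in EV. Of all genes, 8.16% were called between the controls, 5.25% higher and 2.91% lower. OE against KD, read without controls, called 4 members, of which MT2A and MT1F were higher in OE and SLC39A6 and SLC39A8 lower. The background here was 31.9% of all genes, 15.5% higher and 16.4% lower. The interaction, which is the change in OE over EV minus the change in KD over NT, called MT2A and MT1F, both larger in OE. The background was 15.9% of all genes, 6.94% higher and 8.98% lower. These comparisons share samples, so their calls are not independent of one another.

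**Figure D2:**
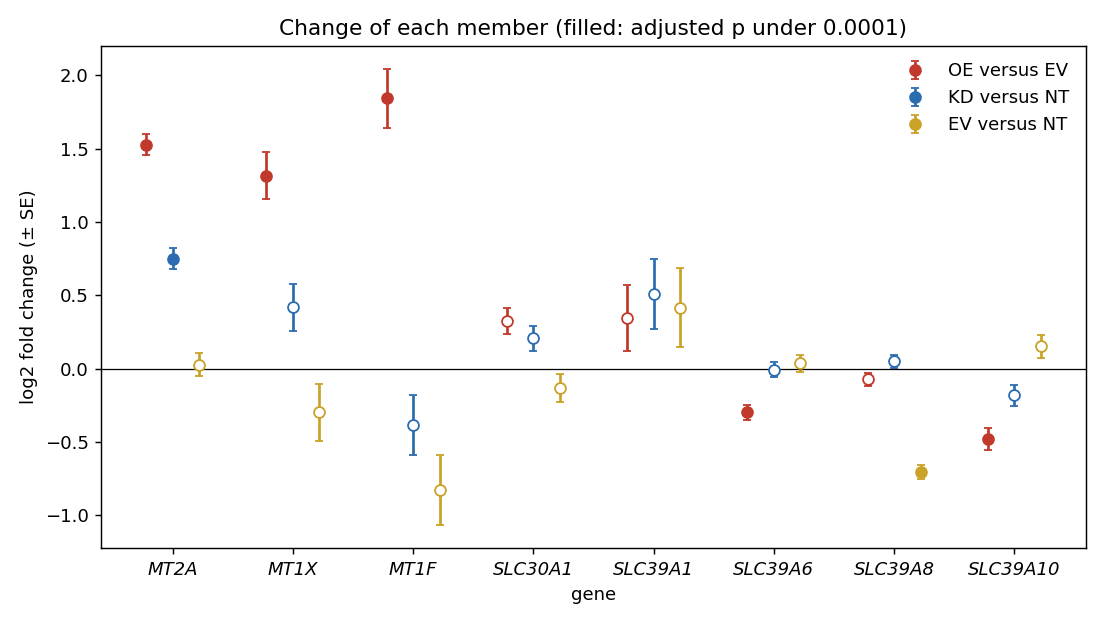
Log2 fold change (± SE) of the 8 tested members in OE versus EV (red), KD versus NT (blue) and EV versus NT (yellow), with filled points where the adjusted p was under 0.0001. The metallothioneins have the highest red points, between 1.32 and 1.84, and the yellow point of SLC39A8 lies at -0.71.

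MT2A is the main metallothionein of most human tissues. Its gene lies at chr16:56608584-56609497 on the + strand, at one end of a 75.6 kb stretch that also holds the other member metallothioneins. MT2A was at 31.7 and 33.2 CPM in NT, at 56.8, 48.9 and 57.7 CPM in KD, at 33.4 and 32.7 CPM in EV, and at 98.4, 89.4 and 97.6 CPM in OE. Both controls overlapped, all KD samples lay above both controls, and all OE samples lay above every other sample. The fold change was 2.88 in OE over EV (log2 1.53, SE 0.0697, adjusted p = 2.06e-14). In KD over NT it was 1.68 (log2 0.75, SE 0.0702, adjusted p = 2.28e-09). The log2 change was larger in OE than in KD by 0.78 (SE 0.0981, interaction adjusted p = 6.4e-07). OE exceeded KD directly by 0.80 on the log2 scale (SE 0.0576, adjusted p = 1.84e-11), and EV differed from NT by 0.03 (SE 0.0795, adjusted p = 0.832). Without KD 2, the sample that stood apart most, the change in KD over NT was 0.82 and the interaction 0.71, both still called. Scaled by library size only, the interaction was 0.64 and missed the limit (adjusted p = 0.000102), where the median of all genes moved by -0.13.

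MT1X, another member of the metallothionein 1 group, lies at chr16:56682470-56684196 on the + strand. It was at 2.94 and 4.57 CPM in NT, 4.98, 4.38 and 5.57 CPM in KD, 3.08 and 3 CPM in EV, and 7.70, 7.06 and 7.93 CPM in OE. The OE samples lay above all others, while NT spanned a wide range that reached into KD and held both EV values. The rise in OE over EV was 2.49-fold (log2 1.32, SE 0.162, adjusted p = 3.59e-07). KD over NT gave a log2 value of 0.42 (SE 0.161, adjusted p = 0.0298), which was not called. This value rested on the NT samples, being 0.13 without NT 1 (adjusted p = 0.575) and 0.76 without NT 2 (adjusted p = 0.00208). The direct difference of OE from KD was 0.60 (SE 0.129, adjusted p = 0.000304) and the interaction 0.90 (SE 0.232, adjusted p = 0.00287), neither called. The direct difference passed the limit without NT 1 (adjusted p = 9.91e-05) or NT 2 (adjusted p = 9.76e-05).

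MT1F lies at chr16:56657731-56660698 on the + strand and was the lowest of the 3 tested metallothioneins. It had 62 and 55 counts in NT, 56, 43 and 42 in KD, 35 and 29 in EV, and 124, 102 and 108 in OE. Scaled for depth these were 2.34 and 2.18 CPM in NT, 2.15, 1.70 and 1.39 CPM in KD, 1.36 and 1.18 CPM in EV, and 4.95, 4.62 and 4.18 CPM in OE. None of the groups compared overlapped, and OE was highest. KD and NT were parted only by 2.15 against 2.18 CPM. How many of all tested genes lacked overlap was not counted. OE exceeded EV 3.59-fold (log2 1.84, SE 0.201, adjusted p = 5.83e-08). KD over NT was -0.39 on the log2 scale (SE 0.202, adjusted p = 0.109), so MT1F, unlike MT2A, showed no called rise in KD. The interaction was 2.23 (SE 0.29, adjusted p = 9.96e-07) and OE exceeded KD by 1.40 (SE 0.163, adjusted p = 7.18e-08). EV lay below NT by 0.83 on the log2 scale (a log2 fold change of -0.83, SE 0.241, adjusted p = 0.00935), which was not called.

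MT1E, at chr16:56625475-56627112 on the + strand, had 0 counts in all 10 samples. A count of 0 allows up to 3 counts, or 0.09951 to 0.1358 CPM by library, and this limit covers counting error only. MT1G, at chr16:56666730-56668065 on the - strand, had 1 count in NT 1, 1 count in KD 3 and 0 counts in the other 8 samples. No fold change was computed for either gene. Of the other 7 metallothionein genes on the wider list (MT1A, MT1B, MT1H, MT1HL1, MT1M, MT3 and MT4), none passed the filter, 5 were at 0 in every sample, and the highest count was 6.

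**Figure D3:**
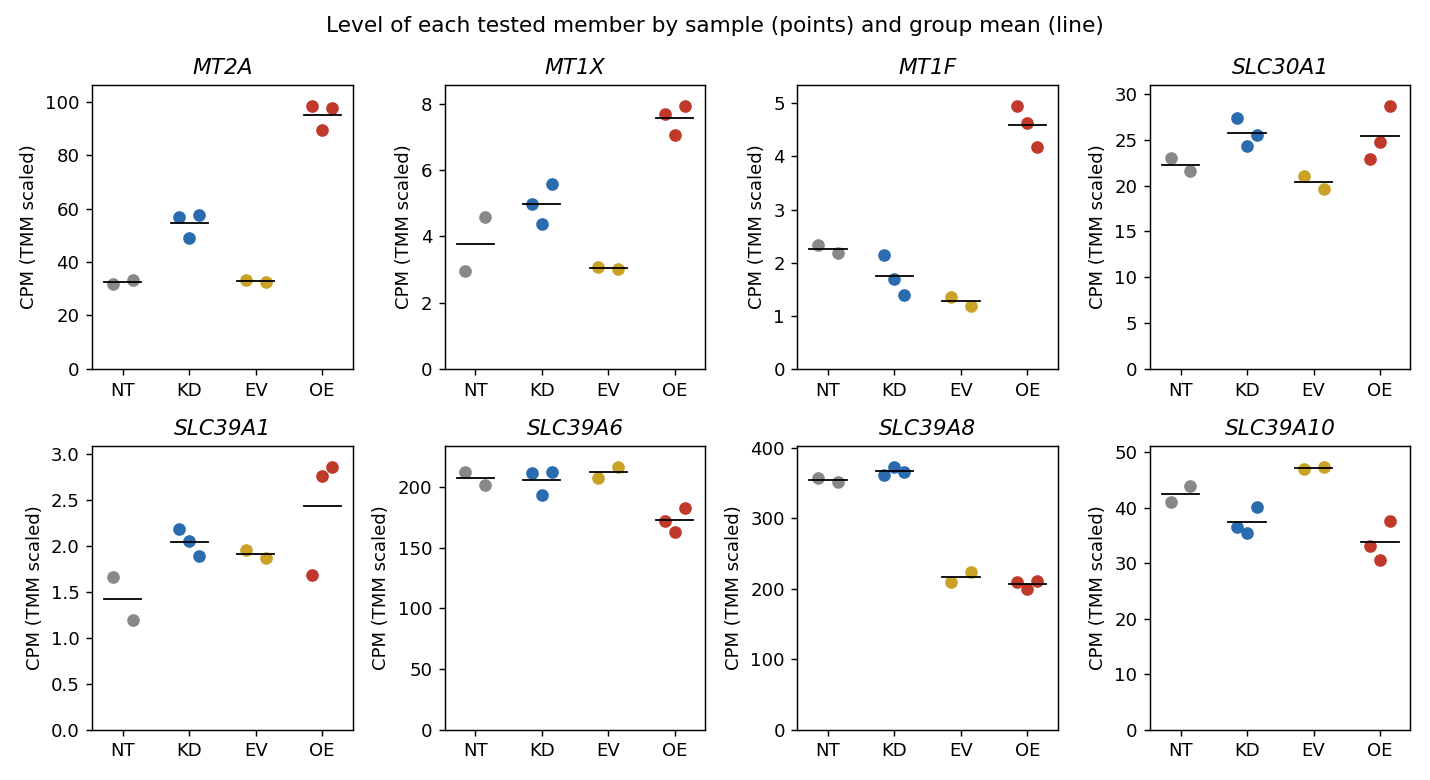
TMM-scaled CPM of each tested member in every sample (points) with the mean of each group (line), on y axes that start at 0. OE samples stand above all others in MT2A, MT1X and MT1F, below all others in SLC39A6, and EV and OE lie together below NT and KD in SLC39A8.

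Metallothionein transcripts are short and alike, so the counting of reads that map to several genes can move counts between them. How such reads were counted is not given in the sources used here. Windows of 50 bases, the shortest read kept, were shared with another annotated gene in 51.0% of the MT1X transcript, 11.1% of MT2A and 6.12% of MT1F. At 150 bases, the read length, the share was 6.67% for MT1X and 0 for MT2A and MT1F. A sum over the 5 metallothionein members does not depend on how reads were split among them, though it misses any read that was not counted. The sum was 37 and 40 CPM in NT, 64, 55 and 64.7 CPM in KD, 37.9 and 36.8 CPM in EV, and 111, 101 and 110 CPM in OE. The sums of the controls overlapped, KD lay above both, and OE lay highest. MT2A made up 83.1% to 89.2% of the sum in every sample. The group means were 38.5 ± 2.08 (SD, n = 2) in NT, 61.2 ± 5.41 (SD, n = 3) in KD, 37.4 ± 0.732 (SD, n = 2) in EV and 107 ± 5.43 (SD, n = 3) in OE. With the other metallothioneins and the metallothionein pseudogenes added, the means were 39.3, 62.2, 37.8 and 108 CPM.

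**Figure D4:**
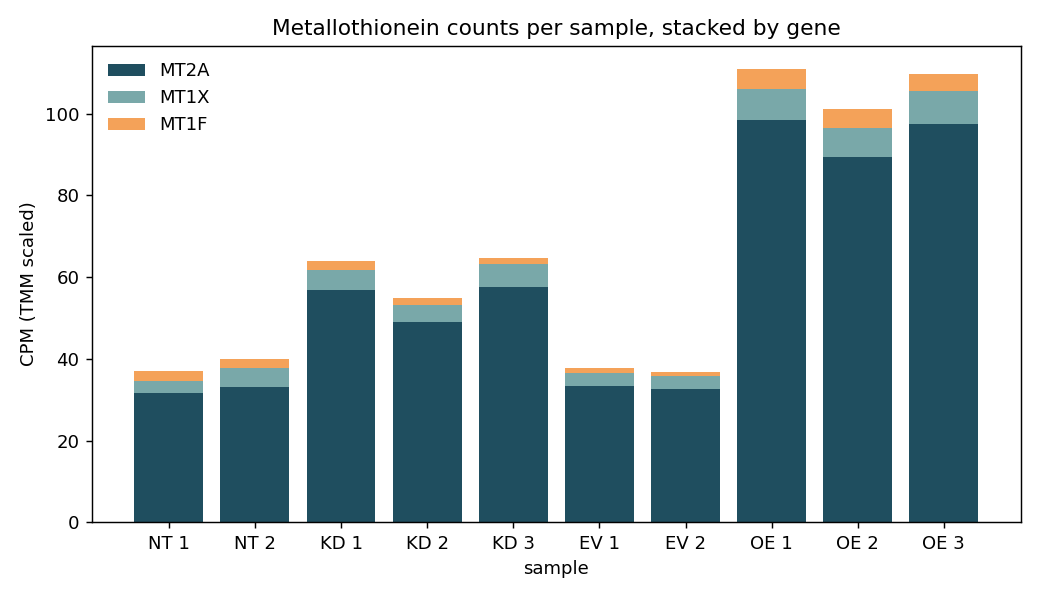
TMM-scaled CPM of MT2A, MT1X and MT1F stacked for each of the 10 samples. The stacks reach 101 to 111 CPM in OE, 55 to 64.7 CPM in KD and 36.8 to 40 CPM in the control samples, and MT2A makes up most of each.

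SLC30A1 (ZnT1), the main zinc exporter of the plasma membrane, lies at chr1:211571568-211579161 on the - strand. It was at 23 and 21.6 CPM in NT, 27.4, 24.3 and 25.5 CPM in KD, 21.1 and 19.6 CPM in EV, and 22.9, 24.8 and 28.7 CPM in OE. Each treated line lay above its own control with no overlap, but EV also lay below NT with no overlap. KD and OE overlapped each other. The share of all tested genes that lacked overlap was not counted. The log2 fold change was 0.32 in OE over EV (SE 0.0875, adjusted p = 0.00344) and 0.21 in KD over NT (SE 0.0854, adjusted p = 0.0426). Neither passed the limit of 0.0001, though both passed 0.05. The difference of OE from KD was -0.01 (SE 0.0755, adjusted p = 0.885) and the interaction 0.12 (SE 0.122, adjusted p = 0.47). On the same fold scale, the rise of MT2A in OE was 2.88 and the value of SLC30A1 was 1.25.

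SLC39A8 (ZIP8) carries zinc, manganese and cadmium into the cell and lies at chr4:102251080-102431258 on the - strand. It was at 357 and 351 CPM in NT, 361, 373 and 365 CPM in KD, 210 and 224 CPM in EV, and 209, 199 and 211 CPM in OE. The samples fell into the puromycin-selected lines at a higher level and the blasticidin-selected lines at a lower one. EV was below NT by a log2 fold change of -0.71 (SE 0.0505, adjusted p = 1.18e-10) and OE below KD by -0.83 (SE 0.0413, adjusted p = 3.06e-14). Against its own control, SLC39A8 gave -0.07 in OE (SE 0.0465, adjusted p = 0.189), with overlapping groups, and 0.05 in KD (SE 0.0454, adjusted p = 0.38). OE and KD thus differed in the direction in which their controls already differed, and the interaction was -0.12 (SE 0.065, adjusted p = 0.133). Vector, drug and line cannot be told apart as the source of the difference between EV and NT. Of 10 tested protein-coding genes within 1 Mb of SLC39A8, 3 were called lower in EV than in NT and 0 higher. The shares over all tested genes, coding or not, were 2.91% lower and 5.25% higher. The median of the 10 was -0.38 on the log2 scale and their lowest value -1.36. Protein-coding genes near other members also had medians below 0 in EV over NT. These medians were -0.23 around the metallothioneins (18 genes) and -0.27 around SLC39A6 (13 genes). They were -0.27 around SLC39A10, with only 3 genes, and -0.03 around SLC30A1 (10 genes). The median over all tested genes, coding or not, was -0.004, and that over all coding genes was not computed.

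SLC39A6 (ZIP6, also LIV-1) is an importer known from estrogen-responsive breast cancer, at chr18:36108531-36129385 on the - strand. It was at 213 and 202 CPM in NT, 212, 194 and 213 CPM in KD, 208 and 217 CPM in EV, and 172, 163 and 183 CPM in OE. All OE samples lay below all others, and the other 3 lines overlapped. OE fell below EV by 1.23-fold (log2 -0.30, SE 0.0538, adjusted p = 5.3e-05). OE was also below KD (log2 -0.26, SE 0.0483, adjusted p = 6.54e-05), while KD over NT was -0.0071 (SE 0.0536, adjusted p = 0.921). The call in OE over EV was lost without EV 1 (adjusted p = 0.000988), EV 2 (0.0041), OE 1 (0.00049) or OE 2 (0.000448). The call of OE against KD was lost in 8 of the fits that left out 1 library, kept only without KD 2 or OE 3, and lost when both lines were fitted alone (adjusted p = 0.000418). The interaction was -0.29 (SE 0.0761, adjusted p = 0.00299) and was called without KD 2 (adjusted p = 5.53e-05).

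SLC39A10 (ZIP10), the closest relative of SLC39A6 and its partner in a complex, lies at chr2:195575977-195737702 on the + strand. It was at 41.1 and 43.9 CPM in NT, 36.5, 35.5 and 40.2 CPM in KD, 47.0 and 47.4 CPM in EV, and 33.1, 30.5 and 37.7 CPM in OE. EV was highest, OE lay below EV and NT, and OE overlapped KD. The fall in OE against EV was 1.39-fold (log2 -0.48, SE 0.0746, adjusted p = 8.85e-06). Its call was lost without EV 1 (adjusted p = 0.000454), EV 2 (0.000466) or OE 1 (0.00013). KD over NT was -0.18 (SE 0.0742, adjusted p = 0.0376) and the interaction -0.30 (SE 0.106, adjusted p = 0.0253), neither called. OE and KD differed by -0.15 (SE 0.0682, adjusted p = 0.0702).

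SLC39A1 (ZIP1), a widely expressed importer that has been linked to zinc uptake in the prostate, lies at chr1:153959099-153968184 on the - strand. It had 44 and 30 counts in NT, 57, 52 and 57 in KD, 50 and 46 in EV, and 42, 61 and 74 in OE. Groups overlapped in OE against EV and in OE against KD. The log2 fold change was 0.35 in OE over EV (SE 0.225, adjusted p = 0.208) and 0.51 in KD over NT (SE 0.241, adjusted p = 0.0754), and no comparison called it. The first value was 0.56 without OE 1 (adjusted p = 0.0323) and 0.20 without OE 3 (adjusted p = 0.533). The second was 0.77 without NT 1 (adjusted p = 0.0535) and 0.30 without NT 2 (adjusted p = 0.431). Its level is uncertain as counted, since 95.8% of its transcript at 50 bases, and 95.6% at 150 bases, was also found in ENSG00000285779, a protein-coding gene on the same strand. It also shares 8.26% of its exon bases with CREB3L4 on the opposite strand, and whether counting used strand is not given in the sources used here.

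Levels of different genes were compared per kb of the transcript that is annotated as canonical. The order can depend on that choice. For SLC39A8 this transcript has 3152 bases, against 8482 over all exons, and for MT2A it has 401, against 914. In NT, SLC39A8 had 112 CPM per kb, MT2A 80.9 and SLC39A6 58.2. MT1X had 9.29 CPM per kb, SLC39A10 8.14, MT1F 5.32, SLC30A1 3.79 and SLC39A1 0.7. In OE, MT2A had 237 CPM per kb, SLC39A8 65.4 and SLC39A6 48.4, so MT2A was the highest member there. MT1X was at 18.7 CPM per kb in OE, MT1F at 10.8, SLC39A10 at 6.47, SLC30A1 at 4.32 and SLC39A1 at 1.19.

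The wider family of zinc genes was described from a list of 37 other genes, of which 36 were in the table and 18 were tested. The pseudogene MT1IP was not analysed here, and of the other 8 metallothionein pseudogenes only MT1DP was tested and it was not called. In OE against EV, 5 of the 18 were called, 4 higher and 1 lower, against the background of 21.9% given above. Their median log2 fold change was 0.17, where that of all genes was -0.02. In KD against NT, 5 were also called, 4 higher and 1 lower, against 29.1%, with a median of 0.08. EV against NT called 2, both higher in EV, against 8.16% of all genes. OE against KD called 8, of which 6 were higher and 2 lower, against 31.9%. The interaction called 2, of which 1 was higher and 1 lower, against 15.9%.

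Of the 7 other tested importers, 4 were called higher in OE over EV, against 11.6% of all genes, and 0 lower, against 10.3%. SLC39A7 (ZIP7), which releases zinc from the endoplasmic reticulum and Golgi, had a mean of 126 ± 5.21 CPM (SD, n = 2) in NT, 182 ± 8.4 (SD, n = 3) in KD, 142 ± 5.4 (SD, n = 2) in EV and 208 ± 5.58 (SD, n = 3) in OE. It rose by a log2 fold change of 0.54 in OE over EV (SE 0.051, adjusted p = 5.98e-09) and by 0.53 in KD over NT (SE 0.0512, adjusted p = 3.9e-09), and the interaction was 0.01 (SE 0.0715, adjusted p = 0.904). SLC39A4 (ZIP4), the intestinal zinc importer that is defective in acrodermatitis enteropathica, rose in both as well. Its log2 fold change was 0.61 in OE over EV (SE 0.0732, adjusted p = 2.61e-07) and 0.43 in KD over NT (SE 0.0752, adjusted p = 2.93e-05), and the second call was lost without NT 1. OE exceeded KD in SLC39A4 by 0.46 (SE 0.0638, adjusted p = 1.14e-06).

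SLC39A14 (ZIP14), which also carries iron and manganese, rose by 0.37 in OE over EV (SE 0.0484, adjusted p = 7.87e-07), a call lost without EV 2. SLC39A3 (ZIP3), an importer at the plasma membrane, rose by 0.42 (SE 0.0659, adjusted p = 1.1e-05), a call lost without EV 1 or EV 2. Both were also higher in OE than in KD, SLC39A3 by 0.55 (SE 0.0586, adjusted p = 2.05e-08) and SLC39A14 by 0.26 (SE 0.0427, adjusted p = 1.21e-05), the latter lost without KD 1 or KD 3. SLC39A13 (ZIP13), needed for connective tissue, was higher in OE than in KD by 0.76 (SE 0.0768, adjusted p = 7.32e-09). Its interaction was 0.74 (SE 0.121, adjusted p = 2.37e-05), a call lost without NT 1, NT 2, KD 1, EV 2 or OE 1. SLC39A11 (ZIP11) rose by 0.53 in KD over NT (SE 0.0753, adjusted p = 1.72e-06), a call lost without NT 1. Its mean in NT, 16.8 CPM, stood below those of KD (24.3), EV (23.9) and OE (22.8). EV exceeded NT in SLC39A11 by 0.51 (SE 0.0824, adjusted p = 3.93e-05), and the interaction was -0.60 (SE 0.105, adjusted p = 5.19e-05). Both calls were lost without NT 1, NT 2, EV 1 or EV 2, and that of the interaction also without KD 1, OE 1 or OE 3.

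**Figure D5:**
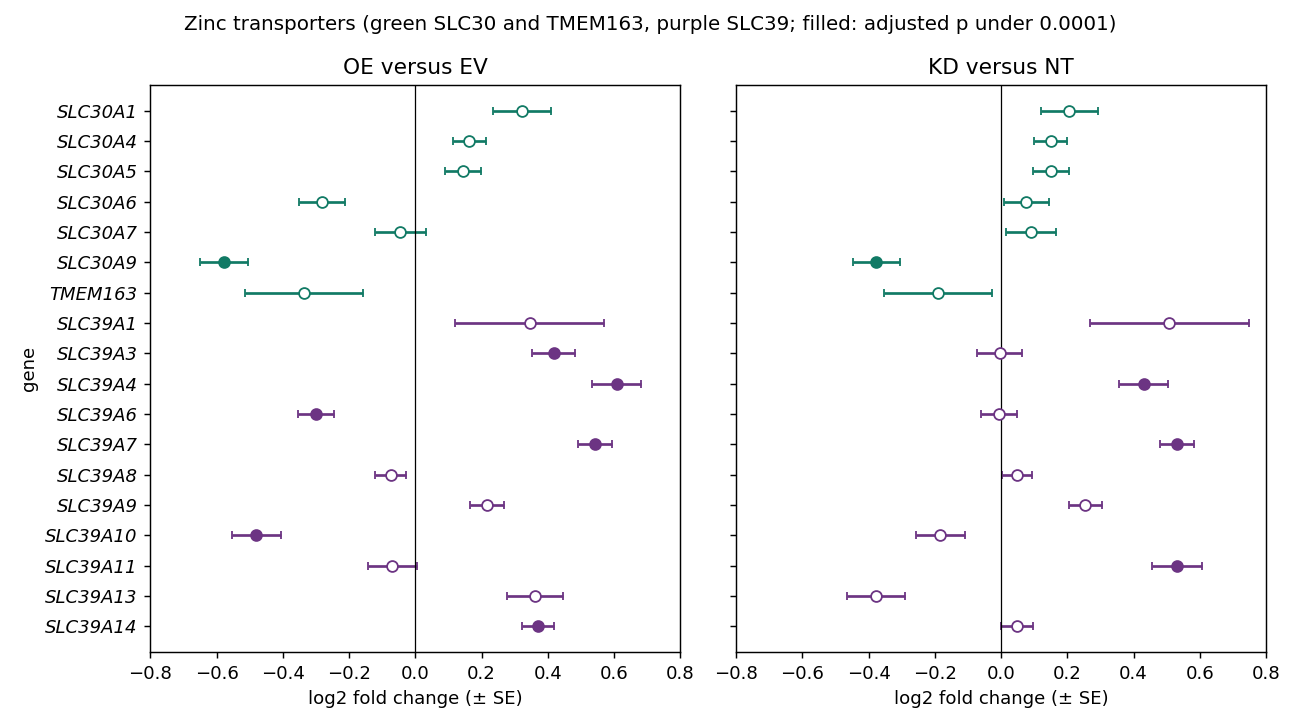
Log2 fold change (± SE) of zinc transporters in OE versus EV (left) and KD versus NT (right), with SLC30 genes and TMEM163 in green, SLC39 genes in purple, and filled points where the adjusted p was under 0.0001. In OE, SLC39A3, SLC39A4, SLC39A7 and SLC39A14 lie to the right of 0 and SLC39A6, SLC39A10 and SLC30A9 to the left.

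Of the SLC30 group, SLC30A4 (ZnT4), which loads zinc into vesicles, differed by line. Its mean was 246 ± 9.02 CPM (SD, n = 2) in NT, 273 ± 16.4 (SD, n = 3) in KD, 397 ± 7.81 (SD, n = 2) in EV and 444 ± 5.42 (SD, n = 3) in OE. EV exceeded NT by 0.69 on the log2 scale (SE 0.0543, adjusted p = 6.5e-10) and OE exceeded KD by 0.70 (SE 0.0441, adjusted p = 1.73e-12). SLC30A4 was thus higher, and SLC39A8 lower, in the blasticidin-selected lines. SLC30A9, a mitochondrial zinc transporter, fell by 0.58 in OE over EV (log2 -0.58, SE 0.0723, adjusted p = 4.54e-07) and was lower in OE than in KD (log2 -0.39, SE 0.0656, adjusted p = 1.39e-05). Its value in KD over NT was -0.38 (SE 0.0703, adjusted p = 6.42e-05), a call lost without NT 1, NT 2, KD 1, EV 1, EV 2 or OE 1, and the call of OE against KD was lost without KD 1, KD 3, OE 1 or OE 2. SLC30A10, a manganese exporter, had 2 to 20 counts per sample and was higher in OE than in KD by 2.41 (SE 0.429, adjusted p = 3.26e-05), a call lost without KD 1, KD 3 or any of the OE samples.

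MTF1, the zinc sensor, had a mean of 34.5 ± 0.212 CPM (SD, n = 2) in NT, 43.7 ± 0.99 (SD, n = 3) in KD, 32 ± 0.122 (SD, n = 2) in EV and 36 ± 1.13 (SD, n = 3) in OE. Its RNA rose by 0.34 in KD over NT (SE 0.0596, adjusted p = 2.92e-05), a call lost without NT 1, NT 2, KD 1 or KD 3. In OE over EV it was 0.17 (SE 0.0613, adjusted p = 0.0227), not called. OE was below KD (log2 -0.28, SE 0.053, adjusted p = 6.82e-05), a call kept, of the fits that left out 1 library, only without KD 2. KD was thus highest in MTF1 RNA, and OE was highest in MT2A. Both genes had positive values in OE over EV and in KD over NT. Any part of MTF1 in the metallothionein changes was not tested.

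The protein-coding genes around the metallothionein cluster were read beside it, against shares over all tested genes, coding or not. Of 18 other tested protein-coding genes within 1 Mb of it, 1 was called higher in OE over EV, against 11.6% of all genes. Called lower were 2, against 10.3%, and the median of the 18 was 0.03 on the log2 scale. In KD over NT, 3 of them were called higher, against 16.4%, and 2 lower, against 12.8%, the median being -0.06. In OE against KD, 2 were called higher, against 15.5%, and 7 lower, against 16.4%, and the median was -0.33. EV over NT gave 0 higher and 1 lower, against 5.25% and 2.91%, at a median of -0.23. The interaction gave 2 higher and 0 lower, against 6.94% and 8.98%, at a median of -0.08. MT2A itself was at 1.53 in OE over EV, 0.75 in KD over NT, 0.80 in OE against KD, 0.03 in EV over NT and 0.78 in the interaction.

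The likeness of other genes to each member over the 10 samples was described by Pearson's r of log2 CPM, with no test, since the samples come from 4 lines and share their group differences. MT2A was most like MANF (r = 0.9931) and PLA2G4D (r = 0.9867). MT1X was most like AKAP8L (0.9807) and CTNNBL1 (0.9775), and MT1F was most like SFSWAP (0.9754) and PCAT6 (0.9745). SLC39A8 was most like TXNRD1 (0.9849) and ACTL6A (0.9831), SLC39A6 like POT1 (0.9832) and FASTKD1 (0.9828), and SLC39A10 like N6AMT1 (0.9634) and GPR155 (0.9621). SLC30A1 was most like TRIM5 (0.9229) and IER3-AS1 (0.9211), and SLC39A1 like AC044860.1 (0.8902) and GATD3B (0.8884). Among the members, MT2A and MT1X had r = 0.949, MT2A and MT1F 0.793, and MT2A and SLC39A10 -0.825.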

How the data were processed

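RNA of 10 LNCaP-C4-2 samples was sequenced in read pairs of 150 bp. The authors trimmed adapters with BBDuk, dropped reads under 50 bp and aligned and quantified the rest with STAR 2.6.0a on Ensembl hg38, per the submitters' processing notes and the study's methods. The deposited values are whole-number gene counts, with 0 columns left out. Samples were grouped by title. Sample totals were 23555205 to 28615770 counts, and 3 counts equal 0.09951 to 0.1358 CPM.

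Low genes were removed by filterByExpr and TMM factors were used for scaling. The quasi-likelihood F test of edgeR 4.0.16, run in R 4.3.3, was applied to 1 fit of all 10 samples with 1 mean per line. Benjamini-Hochberg adjustment covered 17230 genes, and calls used the study's limit of 0.0001. The SE is the log2 fold change divided by the root of F. The study fitted limma, and limma-voom (limma 3.58.1) and DESeq2 1.42.0 were among the alternatives, with other scalings and filters, a limit of 0.05, each comparison fitted alone, the replicate block, and each sample left out. The members and lists were chosen with earlier results of these data known. All members were named, other zinc genes where called, and for each tested member the 2 genes most correlated with it that had an average log2 CPM of at least 1. Positions are from GENCODE v44 on GRCh38, which may differ from the authors' Ensembl release, and promoter windows from RefSeq.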

Additional observations from a re-analysis of the deposited data

How the results depend on the processing

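Members called in OE over EV numbered 3 to 5 when each sample was left out in turn. At a limit of 0.05 in place of 0.0001, 4 of the 8 tested members were called in KD over NT, 2 in EV against NT and 5 in the interaction. Of all 17230 genes, 9905, 5867 and 7631 were called at that limit in these comparisons. With library size only, 1 member was called in the interaction. Shares of all genes were not counted for the other scalings, filters and fits. Library size only moved the median of all genes by -0.10 in OE over EV, 0.04 in KD over NT, -0.13 in OE against KD and -0.13 in the interaction. The rise of MT2A, MT1X and MT1F in OE over EV, of MT2A in KD over NT, and the difference of SLC39A8 between EV and NT were called under every alternative run at the limit of 0.0001.

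Values near 0 changed sign. SLC39A6 in KD over NT was 0.0027 with DESeq2 size factors and with the DESeq2 Wald test, 0.0301 with library size only and 0.0046 with no filter, and the interaction of SLC30A1 was -0.0190 with library size only. When single samples were left out, log2 values ranged from -0.0448 to 0.0373 for SLC39A6 in KD over NT (0.0350 without NT 1 and 0.0373 without KD 2). In EV over NT they ranged from -0.0059 to 0.0606 for MT2A, from -0.5845 to 0.0481 for MT1X and from -0.0035 to 0.0771 for SLC39A6. They ranged from -0.1101 to 0.0582 for SLC30A1 in OE against KD and from -0.4261 to 0.0521 for SLC39A1 in the interaction. None of these values was called in any of the fits, and the cause of the changes was not tested.

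With no filter, MT1X was called in OE against KD (adjusted p = 2.01e-06), and 5 members were called there. Library size only ended the calls of SLC39A3 in OE over EV, of SLC39A4, SLC39A14 and SLC30A10 in OE against KD, of SLC30A9 in KD over NT and of SLC39A13 in the interaction. Fitting the lines alone ended those of MTF1, SLC39A4 and SLC30A9 in KD over NT and of MTF1 and SLC30A9 in OE against KD. The DESeq2 Wald test ended that of SLC30A10, and no filter that of MTF1, in OE against KD. The cause was not tested.

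Same-numbered samples of different lines did not deviate together on average (mean r = -0.00282 over 13 pairs, against 0.00156 over 24 pairs with different numbers). In NT and EV, with 2 samples each, the deviations mirror each other. The means therefore cannot show whether same-numbered samples shared a preparation. With the replicate block, 5 members were called in OE over EV, 1 in KD over NT, 1 in EV against NT, 4 in OE against KD and 2 in the interaction, as without it. Leaving out a sample of NT or EV leaves 1 sample, which is then assumed to vary like the other lines. MT1E and MT1G had too few counts for a comparison, and the cause of this was not tested. The low counts of MT1F and SLC39A1 carry the largest SE of the tested members.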
